A study of Mus musculus with 6 samples.

Results

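The miR-29 family was examined in the mouse Lewis lung carcinoma line LLC1, grown as a 2D monolayer on plastic or in lr-ECM 3D culture. All mouse miRNAs on the array whose names begin with miR-29a, miR-29b or miR-29c were taken as members, both arms included. This gave 6 of the 566 mouse miRNAs on the array, 3 of them 3p arms (mmu-miR-29a-3p, mmu-miR-29b-3p and mmu-miR-29c-3p, written without the prefix from here on) and 3 of them 5p arms (miR-29a-5p, miR-29b-1-5p and miR-29c-5p), carried by 16 of the 1712 miRNA probes. The 2D cells, which served as controls, were kept in serum-supplemented DMEM, and the lr-ECM 3D cells were plated above agarose in the same medium with 0.5 mg/ml of Geltrex, a matrix gel rich in laminin. Both groups were harvested after 48 h, and 100 ng of total RNA of each of the 3 biological replicates per group was marked with the dye Cy3 for 1 Agilent array of mouse miRNAs. Only 1 cell line was used, and no messenger RNA of a miR-29 target is analysed here.

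MiRNAs are short RNAs that guide a silencing complex to messenger RNAs, mainly through the seed, bases 2 to 8 of the mature strand. Each is cut from a hairpin whose arms give a 5p and a 3p strand, and for most hairpins a single arm accumulates while the other is degraded. The miR-29 family is best known for repressing messenger RNAs of fibrillar and basement membrane collagens, elastin and other matrix proteins, and its loss is a recurrent feature of tissue fibrosis. The comparison asks whether the level of these miRNAs differed between cells in contact with a laminin-rich matrix and cells on plastic. Plate format also differed, and seeding was set by area in 2D and by well in lr-ECM 3D. These differences cannot be told apart from that of the matrix.

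The mature sequences of the members are shown because the shared seed defines the family and because the 3p arms differ in only a few bases, which limits what probes can separate. They are taken from the RefSeq annotation of mouse build GRCm38.p6, which held all 6 members, and are written 5′ to 3′ with the seed in capitals.
miR-29a-3p: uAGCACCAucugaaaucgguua
miR-29b-3p: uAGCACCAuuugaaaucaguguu
miR-29c-3p: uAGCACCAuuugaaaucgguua
miR-29a-5p: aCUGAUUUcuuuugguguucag
miR-29b-1-5p: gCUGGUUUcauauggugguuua
miR-29c-5p: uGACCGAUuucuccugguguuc

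The 3p arms shared the seed AGCACCA, which pairs with the site TGGTGCT in a target, and no mature mouse miRNA outside the family carried that seed in the RefSeq table (0 entries). MiR-29a-3p and miR-29c-3p were identical at 21 of 22 bases and differed only by C10U, counted from the 5′ end with the base of miR-29a-3p first. MiR-29a-3p and miR-29b-3p were identical at 18 of the 22 compared bases and differed by C10U, G18A, U21G and A22U. The 5p arms had different seeds. Cross-binding between probes of the 3p arms was not tested, and each value below is that of a probe rather than of a molecule proven to be single.

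The family is encoded by a pair of gene clusters. Mir29a lies at chr6:31062660-31062747 and Mir29b-1 at chr6:31063023-31063093, both on the minus strand and 275 bases apart. Mir29b-2 lies at chr1:195037040-195037120 and Mir29c at chr1:195037547-195037634, both on the plus strand and 426 bases apart. The hairpins of the miR-29b copies are shown with their mature arms in capitals, since they release the same 3p arm and different 5p arms.
Mir29b-1: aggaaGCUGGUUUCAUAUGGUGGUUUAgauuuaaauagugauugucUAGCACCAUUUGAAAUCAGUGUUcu
Mir29b-2: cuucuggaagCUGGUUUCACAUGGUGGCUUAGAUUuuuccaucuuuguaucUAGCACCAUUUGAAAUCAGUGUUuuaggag
A signal for miR-29b-3p thus cannot be assigned to either locus. Only the 5p arm of Mir29b-1 was measured, while miR-29b-2-5p was not analysed here.

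The arrays differed widely in brightness. The mean signal over miRNA probes was 21.4, 5.03 and 40.4 linear units for the 2D arrays, in replicate order, and 49.9, 38.7 and 37.8 on the lr-ECM 3D replicates. Each array was therefore multiplied by a factor that brought this mean to the mean of the 2D arrays. The lowest log2 signal well above background after that scaling was 7.02 on 2D replicate 2, against 3.30 to 4.95 on the other arrays. Each culture had a slide and a scan day of its own, so slide and culture condition cannot be told apart. With bulk RNA, a smaller share of cells that express a miRNA cannot be told apart from a lower level in each cell.

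The labelled cell type was checked with miRNAs that mark cells or tissues. Of 6 miRNAs of epithelium, among them the miR-200 family, 0 were well above background on any array, and markers of epithelial miRNA expression were therefore absent above background in this carcinoma line. Of 6 miRNAs of blood cells 2 were seen, miR-142a-3p on all 6 arrays and miR-142a-5p on 1 of the 2D and 3 of the lr-ECM 3D arrays, while the erythroid miR-451a was on none. The summed scaled signal of the blood list was 275 to 519 linear units in 2D and 249 to 267 in lr-ECM 3D, lower on every lr-ECM 3D array. A lower value was common after scaling, with 46 of the 48 miRNAs detected on every array lower in lr-ECM 3D. The groups did not overlap for 42.5% of the tested miRNAs. Limma called neither miR-142a-3p (log2 change -0.45, adjusted p 0.333) nor miR-142a-5p (-0.097, adjusted p 0.658). The sum also holds the 4 miRNAs of the list that were well above background on no array. All samples were labelled as cultures of LLC1, and the cause of the lower sum was not tested. MiRNAs of endothelium, liver and neurons were well above background on 0 arrays, and of the 4 muscle miRNAs only miR-206-3p was, on 1 lr-ECM 3D array. The part of such cells in the results on miR-29 was not tested.

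The 3p arms of miR-29a and miR-29b gave bright signals in both cultures, and after scaling to the mean each 3p arm varied little across the arrays on which it was measured. On that scale no 3p arm differed between lr-ECM 3D and 2D by more than the spread between arrays. Relative to the array median of detected miRNAs the groups did not overlap for the 3 arms. That median was picked as a reference only once the values were known, over a list of miRNAs that 2D replicate 2, the dimmest array, set. Against it 31.2% of the 48 miRNAs detected on every array also failed to overlap, 22.9% with lr-ECM 3D higher. MiR-29c-3p, counted among the 3 arms, had no measured level on 2D replicate 2. The 5p arms were at or below the detection limit on most arrays. Thus 3 of the 6 members passed the filter for testing, which required a miRNA to be well above background on all 3 arrays of at least 1 group. All 3 did so through the lr-ECM 3D arrays, and miR-29a-3p and miR-29b-3p through the 2D arrays as well.

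**Figure D1:**
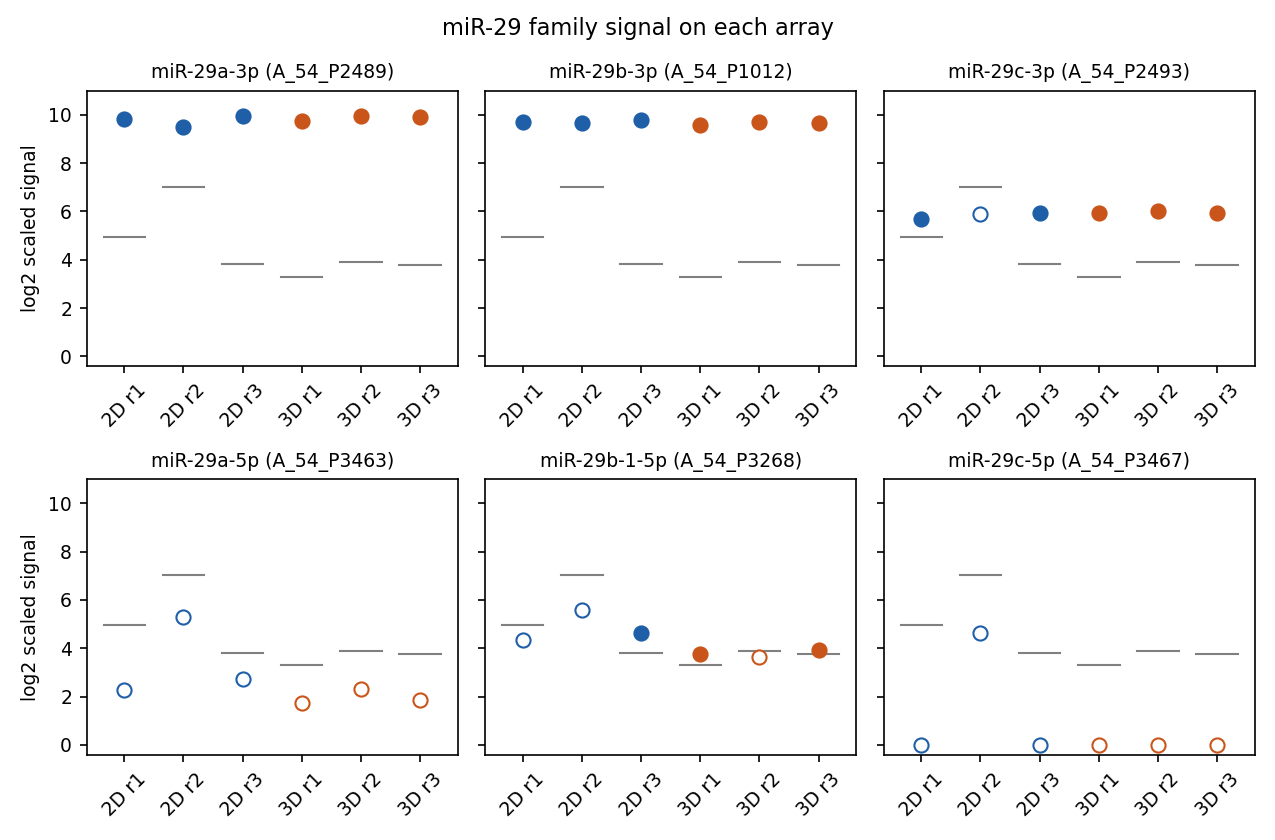
Scaled log2 signal (y axis) of the representative probe of each miR-29 member on each array (x axis, r1 to r3 for replicates), blue for 2D and orange for lr-ECM 3D. Filled points were well above background, open points were not, and grey lines mark the lowest signal well above background on the array. The 3p arms lie at like levels on all arrays, while the 5p arms lie near or under the grey lines.

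MiR-29a-3p, a member of the chromosome 6 cluster, was well above background on all 6 arrays. Its representative probe A_54_P2489, the brighter of its pair, had raw signals, in linear units, of 873, 162 and 1774 for replicates 1 to 3 of the 2D culture and of 1907, 1691 and 1612 for those in lr-ECM 3D. All 10 spots of this probe were well above background on each array. The raw signal was lowest on 2D replicate 2, the dimmest array, and highest on lr-ECM 3D replicate 1, the brightest, and 2D replicate 3 lay between lr-ECM 3D arrays.

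After scaling, the log2 signal of miR-29a-3p was 9.83, 9.49 and 9.93 in 2D and 9.73, 9.93 and 9.89 in lr-ECM 3D. The groups overlapped, and the lowest array was again 2D replicate 2. The 2D arrays averaged 9.75 ± 0.23 and the lr-ECM 3D arrays 9.85 ± 0.10 (SD, n = 3 each). The change, lr-ECM 3D minus 2D, was 0.10 on the log2 scale with an SE of 0.16, an adjusted p of 0.687 in limma and a 95% interval of -0.30 to 0.50, which as a fold runs from 0.811 to 1.41. Without 2D replicate 2 the change was -0.031. The second probe, A_54_P2488, gave scaled log2 signals of 9.01, 8.56 and 9.13 in 2D and 8.97, 9.18 and 9.16 in lr-ECM 3D, again with overlap, and a difference of 0.20.

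MiR-29b-3p, which both clusters encode, had the smallest range over the arrays among the 3 tested members. Probe A_54_P1012 had raw signals of 787, 181 and 1616 in 2D and 1711, 1458 and 1369 in lr-ECM 3D, again in the order of array brightness in 2D. Its scaled log2 signal was 9.68, 9.64 and 9.80 in 2D and 9.58, 9.71 and 9.66 in lr-ECM 3D. All 6 arrays thus lay within 0.22 on the log2 scale, where the median range over the 48 miRNAs detected on every array, meaning well above background there, was 0.79.

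For miR-29b-3p the 2D arrays averaged 9.71 ± 0.08 and the lr-ECM 3D arrays 9.65 ± 0.07 (SD, n = 3 each). The change was -0.06 with an SE of 0.11, an adjusted p of 0.728 in limma and a 95% interval from 0.788-fold to 1.17-fold. The groups overlapped. The second probe of the miRNA, A_54_P1011, was dimmer and gave scaled log2 signals of 7.20, 7.23 and 7.23 in 2D and 7.25, 7.17 and 7.16 in lr-ECM 3D, a difference of -0.03.

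MiR-29c-3p, from the chromosome 1 cluster, was nearest to the detection limit. Probe A_54_P2493 had raw signals of 48.7, 13.2 and 112 in 2D and 136, 111 and 103 in lr-ECM 3D. On 2D replicate 2 none of its 7 usable spots was well above background (0 spots), while on every other array all usable spots were. Its scaled log2 signal of 5.87 there lay under the limit of that array and is no measured level.

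The scaled log2 signal of miR-29c-3p was 5.66, 5.87 and 5.95 on 2D replicates 1 to 3 and 5.93, 6.002 and 5.92 in lr-ECM 3D. The groups overlapped, with 2D replicate 3 between lr-ECM 3D arrays. The means were 5.83 ± 0.15 (SD, n = 3) and 5.95 ± 0.05 (SD, n = 3), a change of 0.12 (SE 0.13), an adjusted p of 0.533 in limma and a 95% interval from 0.872-fold to 1.35-fold. These values include 2D replicate 2, which was not a measured level, and without it the change was 0.14 (SE 0.12) with an adjusted p of 0.42 in limma and a 95% interval of -0.15 to 0.44 on the log2 scale. As miR-29c-3p passed the filter only through lr-ECM 3D, the p-values and intervals of these fits decide nothing. The second probe, A_54_P2492, gave 4.90, 4.47 and 5.10 in 2D, where only replicate 3 was well above background, and 5.33, 5.09 and 5.19 in lr-ECM 3D, with overlap of the groups and a difference of 0.37.

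Of the 3 tested members 0 were called by limma at an adjusted p under 0.05 with a fold of 2, where 11.7% of the 120 tested miRNAs were called, 10.8% as higher and 0.833% as lower in lr-ECM 3D. At an unadjusted p under 0.05 it was again 0 of the 3, where 24.2% of the tested miRNAs passed, and the methods' t-test with a fold of 2 called 0 as well, against 14.2% of the tested miRNAs. The groups overlapped for all 3 members, while they did not overlap for 42.5% of the tested miRNAs and for 37.5% of the 48 well above background on all arrays. The 95% intervals of all 3 members lay within a 2-fold change either way, as did those of 51.7% of the tested miRNAs and 72.9% of the 48 well above background on all 6 arrays. The interval of miR-29c-3p did so with and without 2D replicate 2, but this arm passed the filter only through lr-ECM 3D. Its intervals and missing calls therefore decide nothing. The intervals of the 3 members cover the spread between arrays under 1 scaling, and the missing calls do not show that the levels were equal.

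The raw signals of the members moved with the brightness of the arrays. The mean raw signal in lr-ECM 3D over that in 2D was 1.85 for miR-29a-3p, 1.76 for miR-29b-3p and 2.01 for miR-29c-3p, where the mean brightness of the arrays had a ratio of 1.89. Within the 2D group the brightest array exceeded the dimmest by a factor of 10.9 for miR-29a-3p and 8.95 for miR-29b-3p, where the arrays as a whole differed by a factor of 8.03. Without scaling, changes of 1.46, 1.30 and 1.48 on the log2 scale were obtained for miR-29a-3p, miR-29b-3p and miR-29c-3p, and the median of all tested miRNAs moved to 1.24.

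**Figure D2:**
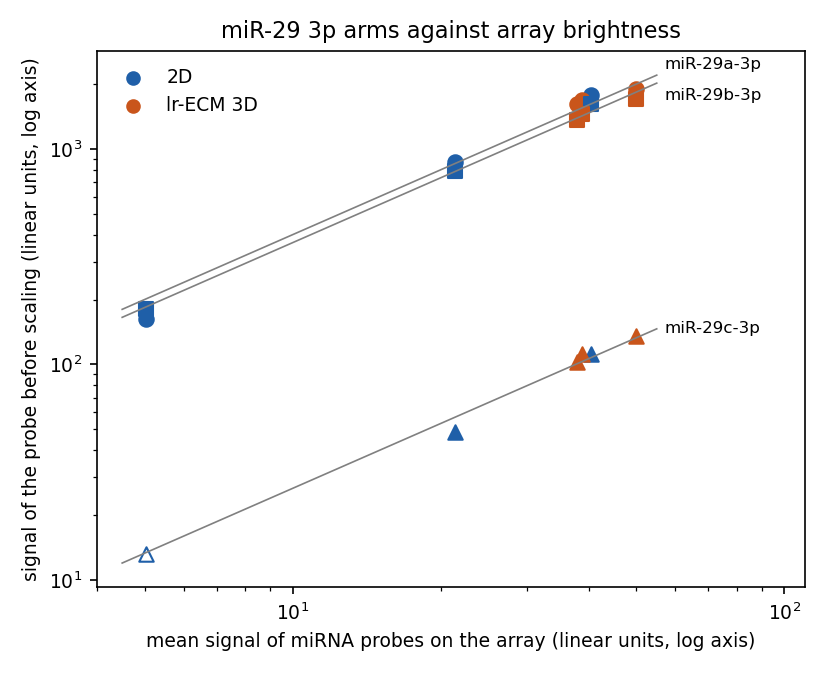
Signal of the representative probe before scaling (y axis) against the mean signal of the miRNA probes of the same array (x axis), both in linear units on log axes, for miR-29a-3p (circles), miR-29b-3p (squares) and miR-29c-3p (triangles). An open symbol was not well above background, and grey lines show strict proportion. The points of both cultures lie along the lines, with 2D replicate 2 at the lower left, where the mean signal was 5.03.

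The share of an array's summed signal that the family took needs no scaling factor. It follows the scaling to the mean, since both divide by the signal of all miRNA probes, and is no separate check. All family probes together held 6.64%, 6.43% and 7.19% of the summed signal of miRNA probes in 2D and 6.28%, 6.98% and 6.81% in lr-ECM 3D. The groups overlapped, with means of 6.75% ± 0.394 (SD, n = 3) and 6.69% ± 0.368 (SD, n = 3) and p = 0.9 in an exact two-sided permutation test. The probes of miR-29a-3p held 2.88% to 4.03% in 2D and 3.54% to 4.07% in lr-ECM 3D, and those of miR-29b-3p 2.49% to 2.73% and 2.40% to 2.58%.

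For miR-29c-3p the shares did not overlap, as for 43.3% of the tested miRNAs on this measure. Its probes held 0.211%, 0.212% and 0.252% of the summed signal in 2D and 0.265%, 0.257% and 0.254% in lr-ECM 3D. No test is given for these shares, since miR-29c-3p passed the filter only through lr-ECM 3D. The values of 2D replicate 3 and lr-ECM 3D replicate 3 were almost level. The probes were not well above background on 2D replicate 2, nor was A_54_P2492 on 2D replicate 1.

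A single summed signal can be led by few bright miRNAs. The 5 brightest probes held 28.98% to 52.1% of the summed signal in 2D and 23.9% to 26.2% in lr-ECM 3D, so the members were also set against the array median of the 48 miRNAs detected on every array. Those 48 were all the mouse miRNAs detected on 2D replicate 2, the dimmest array, so that array alone set the list. How far this shapes the differences below was not tested. The median as a reference was chosen after the values were seen. On that scale miR-29a-3p stood 1.88, 1.02 and 1.94 above the median in 2D and 2.06, 2.06 and 2.05 in lr-ECM 3D, on the log2 scale. All lr-ECM 3D arrays were higher than all 2D arrays, by 0.44 on average.

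MiR-29b-3p stood 1.73, 1.17 and 1.81 above the median in 2D and 1.91, 1.85 and 1.81 in lr-ECM 3D, a difference of 0.29. The nearest arrays of the groups, 2D replicate 3 and lr-ECM 3D replicate 3, were almost level. MiR-29c-3p lay below the median, by -2.28, -2.60 and -2.04 in 2D and by -1.74, -1.86 and -1.92 in lr-ECM 3D, a difference of 0.46. The lowest of these, -2.60 on 2D replicate 2, comes from a probe not above background there, and miR-29c-3p passed the filter only through lr-ECM 3D, so no test is given for it. No 3p arm showed overlap of the groups, with p = 0.1 by exact permutation for miR-29a-3p and miR-29b-3p, the lowest attainable value with 3 arrays per group. Of the 48 miRNAs, 22.9% were likewise higher on every lr-ECM 3D array on this scale, and 31.2% did not overlap in either direction.

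The size of these differences depended on 2D replicate 2. Without it they were 0.15 for miR-29a-3p, 0.09 for miR-29b-3p and 0.32 for miR-29c-3p. With each array left out in turn, the mean stayed higher in lr-ECM 3D for the 3 arms, by 0.15 to 0.61 for miR-29a-3p, 0.09 to 0.41 for miR-29b-3p and 0.32 to 0.60 for miR-29c-3p. The mean was higher in lr-ECM 3D for 58.3% of the 48 miRNAs on this scale.

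**Figure D3:**
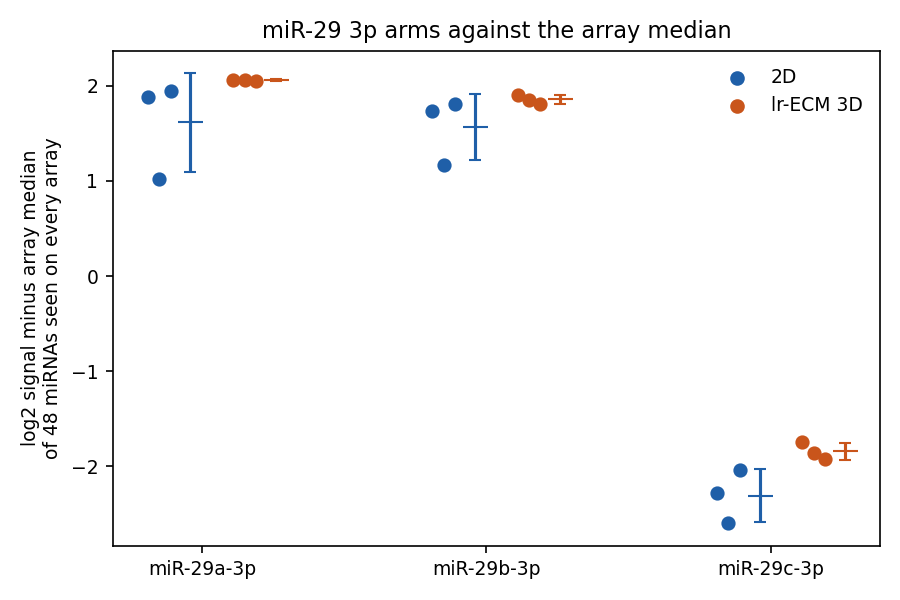
Log2 signal of each miR-29 3p arm minus the array median of the 48 miRNAs detected on every array (y axis), by member (x axis), blue for 2D and orange for lr-ECM 3D. Points are arrays, and bars give the mean and SD of 3 arrays. The lr-ECM 3D points lie above the 2D points for each member, and the lowest 2D point is 2D replicate 2, at 1.02 for miR-29a-3p.

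Among the 48 miRNAs detected on every array, 2 had a positive change and 46 a negative one after scaling to the mean, with a median of -0.27. MiR-29a-3p, at 0.10, was 1 of the 2 with a positive change, the other being miR-103-3p at 0.11, named for that place only, and miR-29b-3p, at -0.06, had place 7 from the top. Without 2D replicate 2 the change of miR-29a-3p was -0.031, so its positive sign rested on that array, which also set the list of 48. Over all 120 tested miRNAs the median change was -0.11, with 44 above 0 and 76 below. This order is a description, since 0 of the 48 were called by limma, and 3 had an unadjusted p under 0.05.

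**Figure D4:**
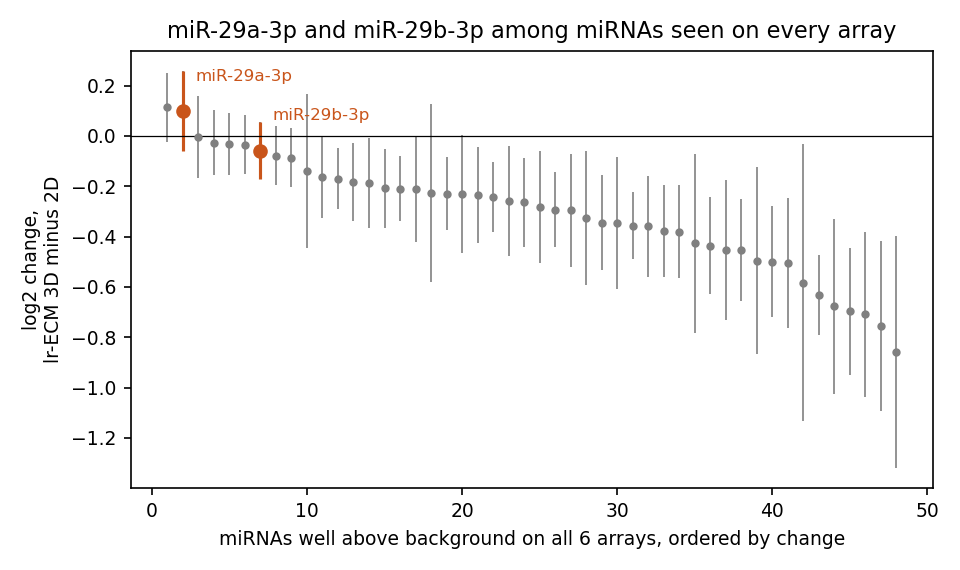
Log2 change, lr-ECM 3D minus 2D (y axis), of the 48 miRNAs detected on every array, ordered from the highest to the lowest (x axis), with bars of 1 SE. MiR-29a-3p (0.10) and miR-29b-3p (-0.06), in orange, lie near the upper end, above the median of -0.27. Without 2D replicate 2, not shown, miR-29a-3p was at -0.031.

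Whether the 3p arms moved together was tested with ratios within an array, which need no scaling. The log2 ratio of miR-29a-3p over miR-29b-3p was 0.15, -0.15 and 0.13 in 2D and 0.16, 0.21 and 0.24 in lr-ECM 3D. The groups did not overlap and differed by 0.16 (0.06 without 2D replicate 2), although 2D replicate 1 and lr-ECM 3D replicate 1 were almost level. How often ratios of other miRNA pairs fail to overlap was not determined. Single miRNAs did so for 42.5% of those tested. The log2 ratio of miR-29b-3p over miR-29c-3p was 4.01, 3.77 and 3.85 in 2D and 3.65, 3.71 and 3.74 in lr-ECM 3D, lower on every lr-ECM 3D array by 0.18 on average (by -0.11 without 2D replicate 1), though it was higher by 0.74 after quantile normalization and by 0.53 after normexp background correction. Its value on 2D replicate 2 rests on a miR-29c-3p signal under the limit of that array.

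The log2 ratio of miR-29a-3p over miR-29c-3p overlapped between the groups, averaging 3.92 ± 0.28 on 2D arrays and 3.90 ± 0.08 on lr-ECM 3D arrays (SD, n = 3 each). Over the 3 pairs the exact two-sided permutation tests gave p = 0.1, 0.1 and 0.8 for miR-29a-3p with miR-29b-3p, miR-29b-3p with miR-29c-3p, and miR-29a-3p with miR-29c-3p. After Benjamini-Hochberg adjustment over the 3 pairs these exact p-values were 0.15, 0.15 and 0.8. Those with miR-29c-3p decide nothing, since it passed the filter only through lr-ECM 3D and had no measured level on 2D replicate 2. The ratio of probes within a miRNA also moved, although both probes carry the name of 1 miRNA: A_54_P2489 over A_54_P2488, both for miR-29a-3p, gave log2 ratios of 0.81, 0.93 and 0.81 in 2D and 0.77, 0.75 and 0.73 in lr-ECM 3D. That difference of -0.10, again with p = 0.1 in the exact permutation test, had an adjusted p of 0.3 by exact permutation over the 3 probe pairs compared. The probe pair of miR-29b-3p differed by -0.03 (exact permutation p = 0.7) and that of miR-29c-3p by -0.26 (exact permutation p = 0.4), the latter larger in size than the 0.16 and -0.18 between members.

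Each probe was printed in several spots. Over the probes and arrays well above background, the coefficient of variation between spots had a median of 8.35% for miR-29a-3p, 7.77% for miR-29b-3p and 18.6% for miR-29c-3p. It reached 29.97% for A_54_P1011 of miR-29b-3p on 2D replicate 2.

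The 5p arms, the strands usually degraded, were seen on few arrays. MiR-29b-1-5p was the only one well above background anywhere, with raw signals of its brightest probe A_54_P3268 of 19.5, 10.9 and 45.4 in 2D and 30.3, 21.8 and 25.6 in lr-ECM 3D. It was well above background on 2D replicate 3 and, in lr-ECM 3D, on replicates 1 and 3. The raw signals of the groups overlapped, with means of 25.3 in 2D and 25.9 in lr-ECM 3D.

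After scaling, the log2 signal of miR-29b-1-5p was 4.34, 5.59 and 4.65 in 2D and 3.76, 3.65 and 3.91 in lr-ECM 3D. The lr-ECM 3D arrays were thus lower than the 2D arrays on the scaled signal, but 2D replicates 1 and 2 lay under the limits of their arrays, 4.95 and 7.02, and lr-ECM 3D replicate 2 under its limit of 3.90. On arrays where it was well above background, the scaled log2 signal was 4.65 on the 2D array against 3.76 and 3.91 for those in lr-ECM 3D, with 1 array in 2D and therefore no test.

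MiR-29a-5p and miR-29c-5p never reached that level (0 of 6 arrays each), and no fold is given for them. The raw signals of miR-29a-5p on A_54_P3463 were 4.60, 8.88 and 12.1 linear units in 2D, and the lr-ECM 3D arrays gave 7.42, 8.63 and 6.06. Those of miR-29c-5p on A_54_P3467 ran from 0.565 to 5.52 and from -0.692 to 0.815.

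The number of members well above background was 3, 2 and 4 on 2D replicates 1, 2 and 3 and 4, 3 and 4 on the lr-ECM 3D replicates. The means were 3 ± 1 (SD, n = 3) and 3.67 ± 0.577 (SD, n = 3), with p = 0.7 by exact permutation, two-sided. The lowest count was that of the dimmest array, on which only miR-29a-3p and miR-29b-3p were seen. Detected mouse miRNAs in all numbered 48 to 101 per 2D array and 120 to 151 per lr-ECM 3D array.

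Other miRNAs linked to matrix genes or fibrosis were examined beside the family. The array carried all 26 such miRNAs that were listed. Of the 9 that passed the filter limma called 0, where 11.7% of all tested miRNAs were called. The change was positive for 1 of the 9, miR-155-5p at 0.18, and negative for 8, with a median of -0.33. Over all tested miRNAs 76 of 120 were negative with a median of -0.11, and over the 48 detected on every array 46 were, with a median of -0.27. At an unadjusted p under 0.05 there was 1 of the 9, miR-214-3p at -0.36 with an adjusted p of 0.19 in limma, where 24.2% of all tested miRNAs passed. In all, 13 of the 26 were well above background on no array.

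The miRNAs most like miR-29a-3p over the 6 arrays were sought among those well above background on all 6, outside the family. The highest Pearson correlations of log2 scaled signal were 0.49 for miR-1224-5p, 0.47 for miR-16-5p, 0.36 for miR-494-3p and 0.30 for miR-31-5p, over n = 6 arrays that share slides and scaling. MiR-29b-3p had 0.57 and miR-29c-3p 0.21. The signal of miR-29a-3p ranged over only 0.44 on the log2 scale, and no correlation outside the family exceeded that of miR-29b-3p.

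The changes of the 3p arms depended on how arrays were made comparable. With the 75th percentile over detected probes, the changes of miR-29a-3p, miR-29b-3p and miR-29c-3p were 0.42, 0.26 and 0.44 on the log2 scale, and the median of tested miRNAs moved to 0.21. For miR-29c-3p limma then gave an unadjusted p of 0.0181 and, after adjustment, an adjusted p of 0.0867. Relative to that median the changes stood at 0.21, 0.05 and 0.23, as they did after scaling to the mean. This is no separate check, since both scalings multiply a whole array by 1 factor. With quantile normalization, miR-29a-3p and miR-29b-3p were at 0.47 and 0.34, with unadjusted p under 0.05 and adjusted p of 0.0889 and 0.0921 in limma, while miR-29c-3p was at -0.40. With the deposited log2 values the changes were 0.95, 0.79 and 0.98, and the median of tested miRNAs moved to 0.76. Wherever a 3p arm was tested it was not called (0 calls by limma and 0 by the methods' t-test).

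**Figure D5:**
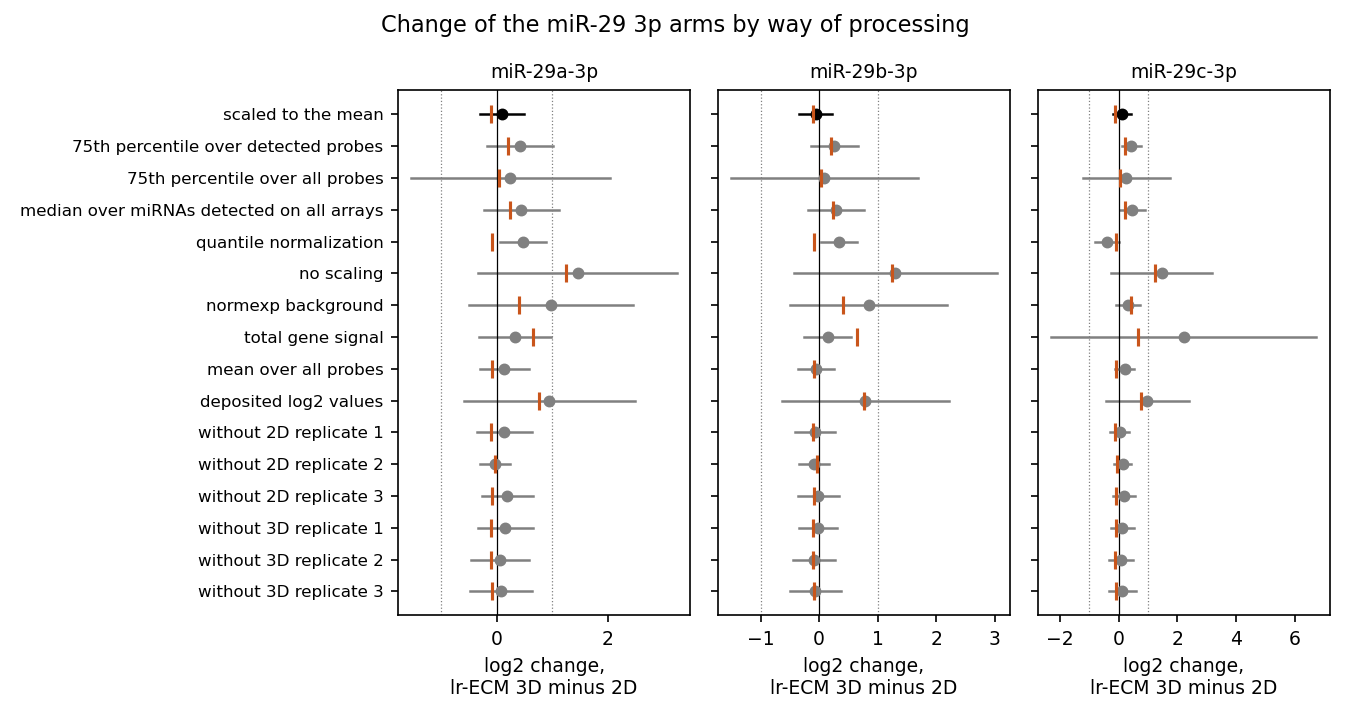
Log2 change, lr-ECM 3D minus 2D (x axis), of each miR-29 3p arm by way of processing (y axis), black for scaling to the mean. Points are changes, horizontal bars 95% intervals, orange ticks the median change of all tested miRNAs, and dotted lines a 2-fold change. Where a scaling shifts all miRNAs of an array alike the changes move with the orange ticks, reaching 1.46 for miR-29a-3p without scaling. They depart from the ticks with normexp (miR-29a-3p at 0.98), with quantile normalization (miR-29c-3p at -0.40) and with total gene signal. There miR-29a-3p, miR-29b-3p and miR-29c-3p were at 0.33, 0.15 and 2.21, against a median of 0.66.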

How the data were processed

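MiRNA levels were measured on 6 Agilent arrays of 1 colour, 3 per culture, grouped by the sample labels. Per the file headers, the authors extracted linear spot intensities with Agilent Feature Extraction 10.7.3.1, with background and spatial trend subtracted and no normalization between arrays. The deposited flags for outliers, saturation and detection form other columns of those files. In the authors' deposited table of log2 values, a column is the log2 of intensities floored at 1 plus an array constant (largest departure 0.049). Here control spots and 190 to 369 outlier spots per array were left out, and spots were averaged per probe. Arrays were scaled to the mean of the 2D arrays (factors 0.447 to 4.43), floored at 1 and converted to log2. This is 1 reading of the study's scaling to control samples, and the columns of the deposited table instead have equal log2 means. A miRNA was represented by its brightest probe, which was well above background where at least 50% of its spots were. Two-sided tests were limma 3.58.1 under R 4.3.3, adjusted by Benjamini-Hochberg over 120 tested miRNAs, and exact permutation tests. The pipeline was tested on simulated data. Named miRNAs are all members, the 4 outside the family with the highest correlation to miR-29a-3p, and called members of the matrix list (0). Other miRNAs were named after their values were seen: miR-103-3p, miR-155-5p and miR-214-3p as the cases behind small counts, and miR-142a-3p, miR-142a-5p, miR-451a and miR-206-3p as cell type markers. The members and lists were chosen with earlier results of these data known. Precision is limited by the 3 arrays per group. Alternatives covered scaling, background, probe summary, floor, filter, deposited values, test, replicate block and each array left out.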

Additional observations from a re-analysis of the deposited data

How the results depend on the processing

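The 3p arms were not called under any of the 21 alternatives in which they were tested (20 for miR-29c-3p, with 0 calls by limma or by the methods' t-test with adjusted p). The 5p arms were tested only without the filter (3 arms) and without 3D replicate 2 (1 arm), with 0 calls, over values mostly not above background. The adjusted p of a 3p arm ranged from 0.0867 to 0.986 in limma. The lowest was that of miR-29c-3p, where it decides nothing, since this arm passed the filter only through lr-ECM 3D. The direction of miR-29b-3p, -0.06 after scaling to the mean, turned to 0.26 when detected probes set a 75th percentile, 0.089 when all probes did, 0.29 with the median over miRNAs detected on all arrays, 1.30 without scaling, 0.34 with quantile normalization, 0.84 with normexp, 0.15 with total gene signal and 0.79 with the deposited log2 values, which gave 0.95 for miR-29a-3p and 0.98 for miR-29c-3p. The median of tested miRNAs was 0.76 with the deposited values. MiR-29c-3p turned to -0.40 with quantile normalization. The difference of change between miR-29a-3p and miR-29c-3p turned to 0.87 with quantile normalization and 0.67 with normexp, and that between miR-29b-3p and miR-29c-3p to 0.74 and 0.53. With total gene signal these differences were -1.88 and -2.07, against -0.02 and -0.18. The cause was not tested, except that a scaling moves all miRNAs of an array alike. With each array left out in turn the change ran from -0.031 to 0.19 for miR-29a-3p, turning only without 2D replicate 2, from -0.09 to -0.01 for miR-29b-3p and from 0.04 to 0.18 for miR-29c-3p, and the difference between miR-29a-3p and miR-29c-3p from -0.17 to 0.10. With the replicate number as a block the changes were 0.10, -0.06 and 0.12 with adjusted p of 0.716, 0.75 and 0.572 in limma, and no 3p arm was called. Same-numbered arrays had correlations of deviations of -0.32, -0.37 and 0.16. With so few arrays these cannot decide whether the numbers pair the samples. With total gene signal miR-29c-3p was at 2.21 with an SE of 1.76. The detection limit of 2D replicate 2 leaves miR-29c-3p and the 5p arms without a measured level there. Over all miRNAs tested, 14 calls (13 higher, 1 lower) became 25 with the 75th percentile over all probes, 27 without scaling, 24 (19 higher, 5 lower) with quantile normalization, 26 with total gene signal, 27 with the deposited values, 32 without the filter, 0 with the filter on all arrays (3 at an unadjusted p under 0.05, with miR-29c-3p not testable) and 32 without 2D replicate 2.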
